A study of Mus musculus with 2 samples.

Results

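The Rab family comprises small GTPases that mark the membranes of the endocytic and secretory routes. Its members were taken as the rows of both count tables whose symbol is Rab followed by a number and at most a letter and a digit, which gave 59 genes of 31057 rows and left out Rab-interacting proteins. Levels are given in sinusoidal endothelial zones, large vessels, macrophages and other cell types of control and cirrhotic mouse liver. The data were 2 droplet libraries made with the 10x 3′ v3 chemistry, each from the pooled livers of 3 C57BL/6 mice aged 16 weeks and carrying Cdh5-Cre+ and mTmG +/+. The control library held 5642 barcodes and the cirrhosis library, from mice that inhaled carbon tetrachloride (CCl4) for 12 weeks, held 8327. Non-parenchymal cells negative for SYTOX Red, a dead-cell dye, were sorted on GFP, which the mTmG reporter makes once Cre, driven here by the endothelial Cdh5 promoter, has acted.

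A Rab protein cycles between a GTP-bound form on a membrane and a GDP-bound form that the GDP dissociation inhibitors carry through the cytosol. Exchange factors (GEFs) load GTP, activating proteins (GAPs) end the active state, and effectors tether, move or fuse the vesicle that carries the Rab. Liver sinusoidal endothelial cells (LSECs), which line the liver's fenestrated capillaries, clear macromolecules from blood by rapid clathrin-mediated uptake and delivery through early and late endosomes to lysosomes.

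Cells were clustered without the Rab genes and named from marker lists, with "-like" understood for every class below. There were 2827 control and 3059 cirrhosis LSECs, whose median UMI count (unique molecular identifiers, 1 per captured transcript) was 6896 and 9929. Each level is the CPM of the class's summed UMIs, and each difference is the log2 ratio of cirrhosis over control with an exact 95% interval for counting error only. With 1 library per condition there is no replicate, no test and no p-value, and an interval that leaves out 0 describes these 2 libraries, not the condition. UMIs are counted at the transcript's 3′ end and do not scale with its length, so levels of different genes are compared as molecules captured. Genes with counts in both libraries and a mean level of at least 20 CPM were called measured. The 2 libraries stood apart within the LSECs: at the first clustering, 1 cluster held 2873 control and 272 cirrhosis endothelial barcodes and another 148 and 2264. They shared 17 barcode sequences, of which 2 were LSECs in both. Stab2, which defines LSECs, stood at 2349 CPM in control and 1522 CPM in cirrhosis LSECs. The summed hepatocyte markers there were 319 and 505 CPM, with all 10 detected in both libraries, and the 12 Kupffer markers 91.9 and 245 CPM. Their part in the differences that follow was not tested.

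In LSECs, 31 of the 59 members were measured, 8 lay from 5 to 20 CPM, 3 from 1 to 5 CPM and 17 below 1 CPM, of which Rab39b, Rab9b and Rab15 had no UMI. The 10 most abundant were Rab5c, Rab14, Rab11a, Rab2a, Rab7, Rab1a, Rab10, Rab12, Rab6a and Rab18, which held 60.5% of Rab UMIs in control and 61.8% in cirrhosis. The whole family summed to 3607 CPM in control and 3966 CPM in cirrhosis LSECs, a log2 ratio of 0.14 (0.12 to 0.15) that is a 1.10-fold higher share of transcripts. Of the measured members, 21 were higher in cirrhosis and 10 lower, where 44.7% of all 6907 measured genes were higher. The interval lay above 0 for 17 members (30.8% of all genes) and below 0 for 6 (39.7%). A difference of 1.5-fold or more was seen upward in 2 members, Rab3b and Rab13 (5.14% of all genes), and downward in 1, Rab27a (5.96%). The members' median ratio was 0.10 and that of all genes -0.04.

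**Figure D1:**
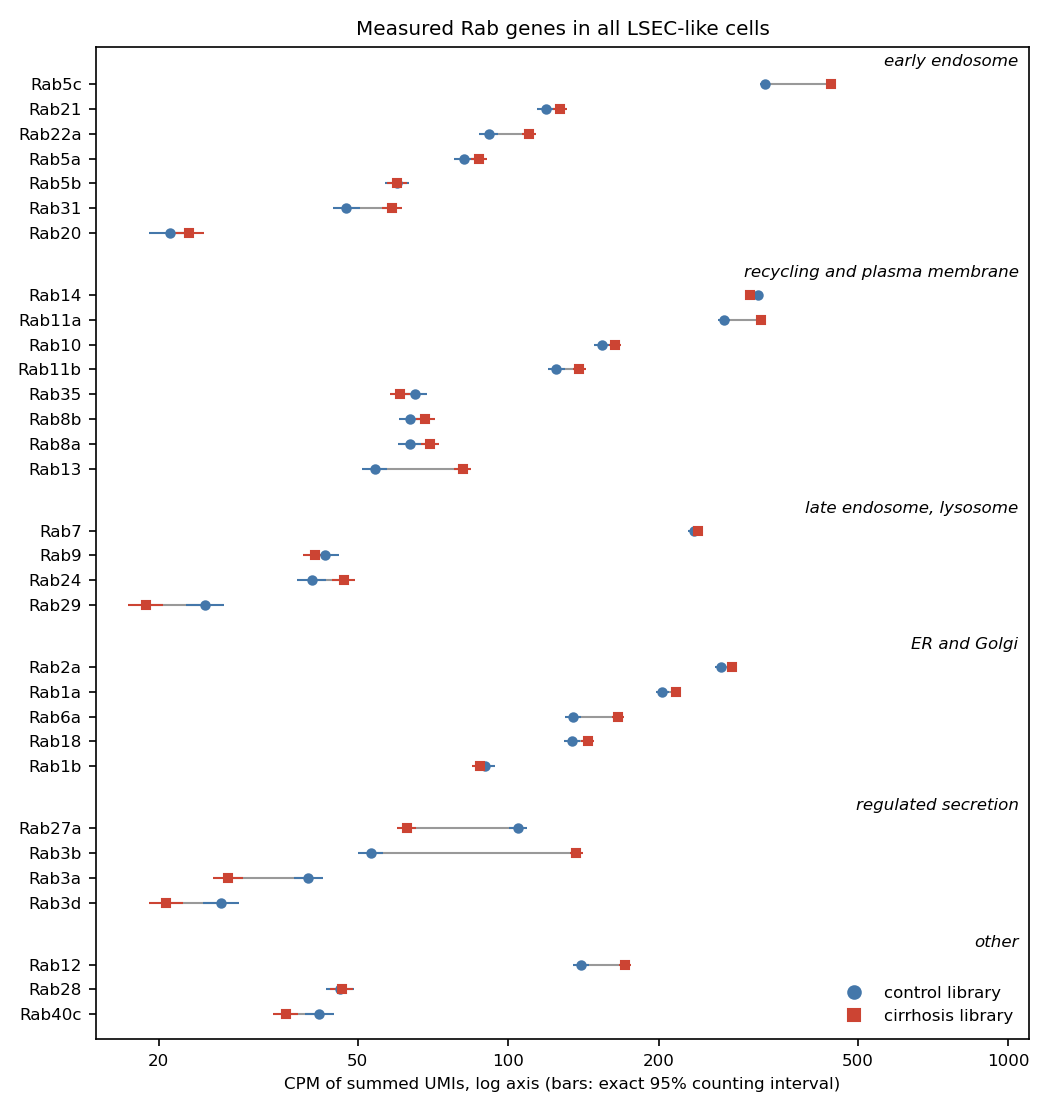
Level of each of the 31 measured Rab genes in LSEC-like cells, as CPM of summed UMIs on a log axis, by role; circles are the control and squares the cirrhosis library, with exact 95% counting intervals. Rab3b moves from 53.1 to 137 CPM and Rab27a from 105 to 62.7 CPM, while Rab7 lies at 235 and 240 CPM.

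Among early endosome Rabs, Rab5c was the most abundant member of the family in cirrhosis LSECs. Rab5 proteins drive fusion of incoming vesicles with each other and with early endosomes. Rab5c stood at 326 CPM in control and 442 CPM in cirrhosis, a log2 ratio of 0.44 (0.40 to 0.48). Its paralogs Rab5a, at 81.7 and 87.5 CPM, and Rab5b, at 60.03 and 59.95 CPM, differed by 0.10 (0.01 to 0.19) and 0.00 (-0.11 to 0.10). The share of Rab5 UMIs that came from Rab5c was therefore 69.7% in control (exact binomial interval 68.8 to 70.6) and 75.0% in cirrhosis (74.4 to 75.6). With every LSEC thinned to 3000 UMIs, Rab5c was detected in 60.9% of 2609 control and 72.4% of 2943 cirrhosis cells (84.0% and 93.3% before thinning), and in 34.9% and 29.7% of T or NK cells. Rab22a and Rab31, which act between early endosomes and the trans-Golgi, were higher by 0.27 (0.19 to 0.35) and 0.30 (0.19 to 0.42). Rab21, which traffics integrins, differed by 0.10 (0.02 to 0.17). Rab20, linked to phagosome maturation, was close to the limit for measured genes at 21.1 and 22.9 CPM. Across the group 6 of 7 measured members were higher (44.7% of all genes), the intervals of 5 lay above 0 (30.8%), and the median ratio was 0.12. Rab17, an epithelial member, was below 1 CPM.

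Recycling Rabs return cargo from endosomes to the cell surface. Rab11a, which defines the recycling endosome, stood at 270 CPM in control and 321 CPM in cirrhosis (0.25, 0.20 to 0.30), and Rab11b at 125 and 139 CPM. Rab13, which delivers proteins to cell junctions, stood at 54.1 and 81.1 CPM, a log2 ratio of 0.59 (0.48 to 0.69). The interval of Rab14, at 316 and 305 CPM, lay just below 0 (-0.05, -0.10 to -0.01), so that the most abundant member of the group in control did not share the direction of Rab11a. Rab10, Rab8a and Rab8b, which serve transport to the plasma membrane, differed by 0.09, 0.14 and 0.10, and Rab35, of a fast recycling route, by -0.10. Of the group, 6 of 8 measured members were higher (44.7% of all genes), with a median of 0.12. Rab4a, a fast recycling Rab below the limit, stood at 9.63 CPM in control and 15.9 CPM in cirrhosis and was higher in each of the 6 LSEC clusters. Rab4b cannot be read apart from the read-through gene Gm21983, which shares 98.7% of the sequence words at its 3′ end.

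The late endosomal Rabs showed no common direction. Rab7, which governs passage from late endosomes to lysosomes, stood at 235 CPM in control and 240 CPM in cirrhosis, a log2 ratio of 0.03 (-0.02 to 0.08). Rab9, of the route from late endosomes to the Golgi, stood at 43.0 and 41.1 CPM. Rab24, tied to autophagy, was higher by 0.21, and Rab29, which acts at the trans-Golgi and lysosome, stood at 24.8 and 18.8 CPM and differed by -0.40 (-0.57 to -0.22). Both directions therefore appear among 4 measured members, with a median of -0.02. In the early secretory route, Rab6a, which acts within the Golgi, was higher by 0.30 (0.23 to 0.36). Rab2a, Rab1a and Rab18 differed by 0.07, 0.09 and 0.10, and Rab1b, a paralog of Rab1a, by -0.03. Of the members with other roles, Rab12 stood at 140 and 171 CPM, Rab28 at 46.1 and 46.4 CPM and Rab40c at 41.9 and 35.9 CPM (-0.22, -0.35 to -0.09). Over the 512 control and 84 cirrhosis LSECs without hepatocyte or Kupffer counts, Rab40c was 0.15 and Rab31 -0.071. With control LSECs from 1 cluster of 116 cells, Rab29 was 0.080 and Rab3a 0.79. That cluster of the first clustering was led by Wnt9b and Rspo3, and was set against all cirrhosis LSECs, so unlike cells were compared.

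The regulated secretion group held the highest and the lowest ratio among the 31 measured members. Rab3b, of the Rab3 proteins that prime vesicles for exocytosis, stood at 53.1 CPM in control and 137 CPM in cirrhosis LSECs, a log2 ratio of 1.37 (1.27 to 1.46). Rab27a, which places and releases lysosome-related granules, including the Weibel-Palade bodies of endothelium, stood at 105 and 62.7 CPM (-0.74, -0.83 to -0.65). The counting intervals of the libraries did not overlap for either gene, and the directions were opposite. Both genes were picked as the extremes of the 31 ratios, so this separation is not independent of that choice. Among all 6907 measured genes in LSECs, the ratio interval lay wholly on the higher side for 30.8% and on the lower for 39.7%. Rab3a, at 39.9 and 27.5 CPM, and Rab3d, at 26.7 and 20.7 CPM, were different by -0.53 (-0.67 to -0.40) and -0.37 (-0.53 to -0.20). Rab3b thus made up 44.3% of Rab3 UMIs in control (42.4 to 46.3) and 73.9% in cirrhosis (72.7 to 75.0). With cells thinned to 3000 UMIs, Rab3b was detected in 12.9% of control and 29.6% of cirrhosis LSECs (26.8% and 57.1% before thinning), and in 2.78% and 0.862% of T or NK cells. Rab27a was detected in 25.7% and 16.9% of thinned LSECs (48.5% and 44.0% before). Of the 4 measured members 1 was higher (44.7% of all genes) and 3 lower, and the median was -0.45. Rab27b, Rab37, Rab26 and Rab3c were below 1 CPM in LSECs.

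The promoter windows shown are those of the members with the highest ratio, the lowest ratio and the highest cirrhosis level among the 31 measured in LSECs. They are RefSeq sequences on GRCm38.p6, with up to 250 bases before the start and none from an annotated exon, and 48 of the 59 members had such a window. Rab3b lies at chr4:108878820-108879062 on the plus strand, Rab27a at chr9:73044560-73044809 on the plus strand and Rab5c at chr11:100738216-100738465 on the minus strand. Capitals mark matches on either strand to a GC box (GGGCGG), a KLF site (CACCC), the letters of the CCAAT box, a TATA box (the letters TATAAA), an AP-1 site (the letters TGACTCA), an E-box (the letters CACGTG) and a CRE (the letters TGACGTCA), and overlapping matches were counted separately.
Rab3b: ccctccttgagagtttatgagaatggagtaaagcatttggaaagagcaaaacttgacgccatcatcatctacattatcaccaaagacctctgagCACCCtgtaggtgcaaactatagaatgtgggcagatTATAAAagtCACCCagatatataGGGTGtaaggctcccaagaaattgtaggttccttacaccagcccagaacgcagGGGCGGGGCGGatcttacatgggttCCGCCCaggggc
Rab27a: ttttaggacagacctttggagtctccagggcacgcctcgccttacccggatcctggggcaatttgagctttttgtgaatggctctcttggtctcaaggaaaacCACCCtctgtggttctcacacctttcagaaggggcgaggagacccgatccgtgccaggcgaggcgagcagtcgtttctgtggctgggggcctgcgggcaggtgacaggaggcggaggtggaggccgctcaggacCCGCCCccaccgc
Rab5c: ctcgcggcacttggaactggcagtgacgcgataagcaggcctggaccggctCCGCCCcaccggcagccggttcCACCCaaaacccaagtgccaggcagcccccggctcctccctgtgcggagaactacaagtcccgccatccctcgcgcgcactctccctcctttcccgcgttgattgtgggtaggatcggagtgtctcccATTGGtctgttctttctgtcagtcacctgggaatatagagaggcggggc
The Rab3b window held 3 GC boxes, 2 of them overlapping, 3 KLF sites and 1 TATA box. A TATA box occurred in 12.4% of all 32851 windows, and in those of 4 Rab genes. The Rab27a window, the first of 2 listed for the gene, held 1 GC box and 1 KLF site, and the Rab5c window 1 of each and 1 CCAAT box. A GC box was found in 32.7% of all windows and in 66.7% of the 60 Rab windows, a KLF site in 52.0% and 68.3%. The other Rab27a window, not printed, held a CCAAT box and an E-box. No AP-1 site, E-box or CRE lay in the 3 windows printed, against 4.46%, 6.02% and 1.55% of all windows. The genes themselves span positions 108879063 to 108943324 of chromosome 4 (Rab3b), 73044854 to 73097629 of chromosome 9 (Rab27a) and 100715009 to 100738215 of chromosome 11 (Rab5c) in GENCODE M21. The gene 8030443G20Rik has an exon opposite to Rab3b, and whether counting used strand is not given in the sources used here.

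By zone, the family's summed level was higher in cirrhosis by nearly the same amount everywhere. Pericentral LSECs, next to the central vein, went from 3716 to 4063 CPM (496 and 976 cells), intermediate LSECs from 3579 to 3902 CPM (1819 and 1609) and periportal LSECs from 3591 to 3920 CPM (512 and 474). Intermediate names clusters with LSEC markers but neither zone list. It is counted with the zones but does not give a place in the lobule. The log2 ratios were 0.13 (0.10 to 0.16), 0.12 (0.11 to 0.14) and 0.13 (0.09 to 0.16), and the pericentral ratio less the periportal was 0.00 (-0.04 to 0.04). Of 29 members measured in every zone, 14 were higher in all 3, 6 were lower in all 3 and 9 differed in direction. Taken zone by zone, 45.8%, 43.6% and 45.2% of all genes were higher in the pericentral, intermediate and periportal class. Rab11a, Rab12, Rab13, Rab22a, Rab3b, Rab5c and Rab6a had intervals above 0 in each zone, and Rab27a and Rab3a below 0 in each. The shares of all genes that kept a direction, or an interval side, in all 3 zones were not computed. These joint counts are therefore not read as a trait of the Rabs. Per zone the interval lay above 0 for 11 pericentral (24.3% of all genes), 14 intermediate (25.3%) and 10 periportal members (18.8%), and below 0 for 4 (30.2%), 5 (35.2%) and 2 (22.3%). Pericentral cells came from a Wnt9b-led cluster (78 control and 425 cirrhosis cells) and another of 418 and 551. Leading genes of the former were Nts, Wnt9b, Rspo3, Tgfb2 and Lhx6, the last of them on the large-vessel list. Whether that cluster holds endothelium of the central vein itself was not tested. The pericentral class thus mixes these clusters in different proportions in the libraries. Intermediate cells came from clusters led by Gm42418 and Fos in control (750 and 865, against 424 and 382 in cirrhosis) and by Esm1 in cirrhosis (803, against 204). The Gm42418-led cluster had median UMI counts of 4339 in control and 4348 in cirrhosis, the lowest of the LSEC clusters.

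Among members at 20 CPM or more in the pericentral class, Rab3b had the highest level relative to all LSECs in both libraries. In control LSECs it stood at 82.4 CPM in the pericentral and 22.6 CPM in the periportal class, and in cirrhosis at 184 and 57.7 CPM. The pericentral level was thus 3.65-fold the periportal in control and 3.19-fold in cirrhosis, and the log2 ratios between libraries were 1.16 pericentrally and 1.35 periportally (difference -0.19, -0.58 to 0.20). Each of the 6 LSEC clusters had a higher Rab3b level in cirrhosis, with ratios of 1.21 to 1.57. Rab5c had ratios of 0.37 to 0.57 and Rab27a of -0.91 to -0.56 over the same clusters. In periportal cells the 10 pericentral markers summed to 1282 CPM in control and 2745 CPM in cirrhosis, and in pericentral cells to 6645 and 6437 CPM. The large-vessel markers summed to 1088 and 2745 CPM in periportal and to 2066 and 3819 CPM in pericentral cells, and the part of either list in the Rab3b levels was not tested.

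Rab20 differed in direction between zones. It stood at 21.2 CPM in control and 12.9 CPM in cirrhosis pericentral cells (-0.72, -1.11 to -0.32), at 15.4 and 27.2 CPM in periportal cells (0.82, 0.36 to 1.29), and at 22.6 and 29.8 CPM in intermediate cells (0.39). The pericentral ratio less the periportal was -1.54 (-2.13 to -0.95). Without the Wnt9b-led cluster the pericentral ratio was -0.33 (-0.78 to 0.12), and neither pericentral cluster alone had an interval below 0. At the other end, among members at 20 CPM or more in either library, Rab5b, Rab31 and Rab18 had the largest positive zone differences, at 0.29 (-0.04 to 0.62), 0.25 (-0.12 to 0.62) and 0.17 (-0.05 to 0.38), and all 3 intervals held 0. The lowest difference by that limit was that of Rab6b, at -1.56 (-3.62 to 0.51), with 0.252 and 1.31 CPM in cirrhosis pericentral and periportal cells. Rab33b, an autophagy and Golgi member, had -0.47 (-1.07 to 0.13). Of the 29 members measured in each zone, 2 had a zone-difference interval below 0 and none above. These were Rab7, at -0.21 (-0.37 to -0.05), and Rab40c, at -0.42 (-0.82 to -0.01). The matching share over all genes was not computed. Under 20 CPM, Rab32 had 1.21 (0.31 to 2.12), with 5.87 and 8.91 CPM in pericentral and 12.0 and 7.84 CPM in periportal cells, and Rab4a had -0.98 (-1.77 to -0.19).

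**Figure D2:**
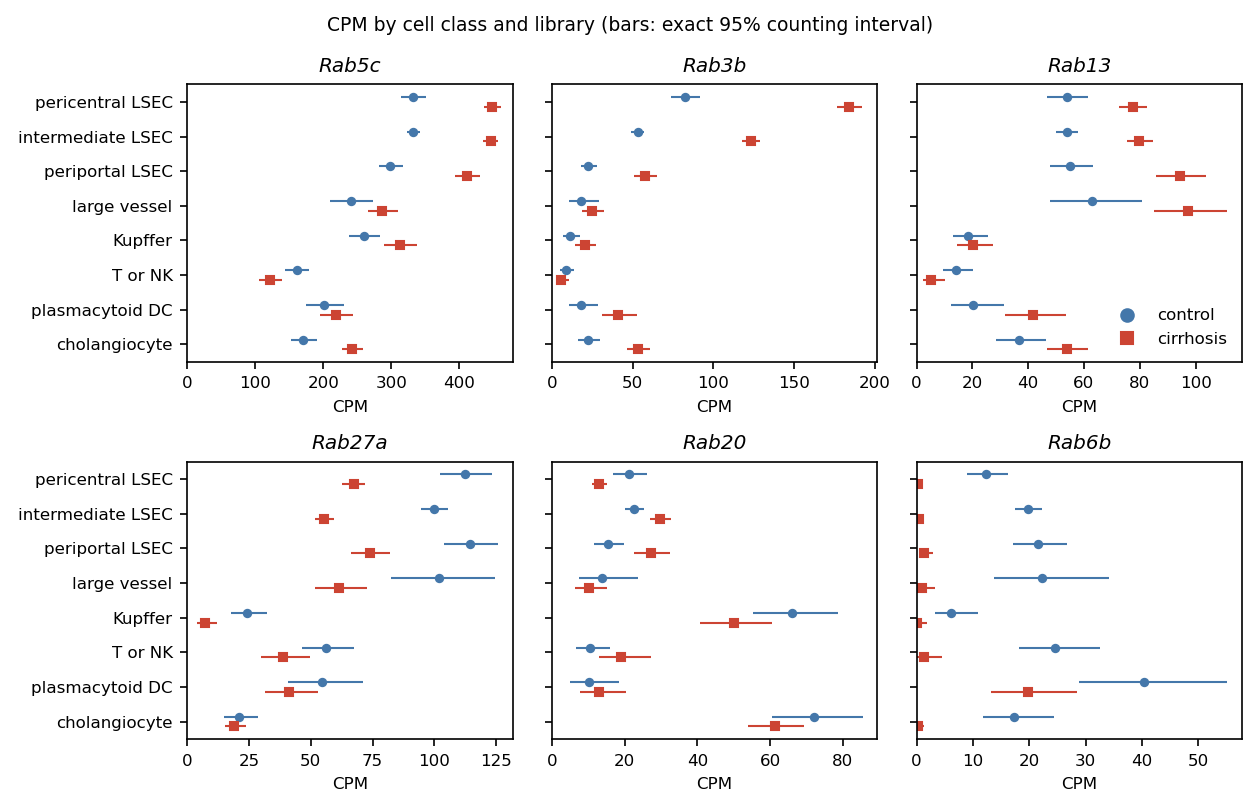
CPM of Rab5c, Rab3b, Rab13, Rab27a, Rab20 and Rab6b in 8 cell classes, with circles for the control and squares for the cirrhosis library and exact 95% counting intervals. Rab20 lies lower in cirrhosis in the pericentral class (21.2 to 12.9 CPM) and higher in the periportal class (15.4 to 27.2 CPM), and Rab6b is near 0 in cirrhosis in every class but the plasmacytoid dendritic cells.

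Rab6b, a paralog of Rab6a best known from neurons, was far lower in the cirrhosis library in most classes. LSECs had 392 UMIs in control (18.7 CPM) and 15 in cirrhosis (0.481 CPM), a log2 ratio of -5.28 (-6.13 to -4.54) or 38.8-fold lower. T or NK cells went from 24.6 to 1.27 CPM, cholangiocytes from 17.2 to 0.248 CPM and large-vessel cells from 22.3 to 0.886 CPM. Kupffer cells had 12 UMIs in control and 0 in cirrhosis, where 3 UMIs would be 1.44 CPM. Plasmacytoid dendritic cells differed from these, with 40.4 CPM in control and 19.8 CPM in cirrhosis. B cells had 2.37 CPM in control and 1.55 CPM in cirrhosis. Genes at 5 CPM or more in control, with counts in both libraries, in LSECs, T or NK cells, cholangiocytes and large-vessel cells numbered 8644. Among them Rab6b was the only gene at least 8-fold lower in all 4. The limit used the control level, where Rab6b was high, and the 4 classes are ones where it was far lower. The count thus describes Rab6b and is no test. Its neighbours on chromosome 9 did not share this ratio in LSECs: Slco2a1 stood at 445 and 665 CPM, Srprb at 29.9 and 23.7 CPM and Topbp1 at 39.1 and 32.3 CPM. Rab6a, which lies on chromosome 7, made up 87.8% of Rab6 UMIs in control LSECs and 99.7% in cirrhosis LSECs. Since all classes of a library come from the same 3 mice and the same run, the condition, the animals and the library cannot be told apart here.

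Large-vessel endothelial cells, of veins and arteries, numbered 93 and 206. Their Rab sum was 3530 CPM in control and 3738 CPM in cirrhosis (0.08, 0.02 to 0.14). The 12 large-vessel markers summed to 4009 and 7235 CPM and the 12 LSEC markers to 10989 and 5435 CPM in this class, and their part in its values was not tested. Of 29 measured members, 5 had intervals above 0 (13.1% of all genes) and 2 below (13.3%). Rab11a, Rab13, Rab18, Rab5c and Rab6a were the 5, with Rab13 at 62.7 and 97.4 CPM (0.64, 0.21 to 1.08). Rab27a, at 102 and 61.5 CPM (-0.73, -1.11 to -0.34), and Rab3a, at 42.5 and 25.2 CPM, were the 2. Rab3b was low in this class, at 18.1 and 24.8 CPM (0.46, -0.35 to 1.33), and Rab34, a lysosome-positioning member, at 12.8 and 20.4 CPM. Of the 9 members whose intervals lay on 1 side of 0 in every LSEC zone, 6 had an interval on the same side here. Rab3b, Rab12 (0.06) and Rab22a (-0.07) had intervals that held 0. The matching share over all genes was not computed, so the overlap is not read as a trait of the Rabs. Among members at 20 CPM or more there, Rab24 and Rab3d had the highest control levels relative to LSECs, at 53.1 and 32.9 CPM.

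Kupffer cells, the resident macrophages of the liver, numbered 213 and 114. Their Rab sum was 2975 CPM in control and 3243 CPM in cirrhosis (0.12, 0.07 to 0.18). Intervals lay above 0 for 7 of 29 measured members (18.6% of all genes) and below 0 for 2 (19.7%). Rab11a stood at 146 and 208 CPM (0.51), Rab8a at 65.7 and 92.8 CPM (0.50) and Rab14 at 229 and 313 CPM (0.45, 0.27 to 0.63), and Rab9 at 31.0 and 51.9 CPM (0.74, 0.28 to 1.22). Among members at 20 CPM or more in either library, Rab3d, at 15.5 and 27.9 CPM, and Rab3b, at 11.4 and 20.2 CPM, had the highest ratios, at 0.85 and 0.83. Rab27a, at 24.3 and 7.21 CPM, Rab28, at 37.7 and 26.5 CPM, and Rab20, at 66.2 and 50.02 CPM, had the lowest by the same limit, at -1.75, -0.51 and -0.40. With cells weighted equally these 3 were 0.15, 0.60 and 0.37, and with doublets kept Rab3b was -0.88, so their direction depends on the setting. The class's cells came from different sub-clusters in the libraries, with 101 of 213 control cells in a sub-cluster holding 1 cirrhosis cell and 82 of 114 cirrhosis cells in another holding 1 control cell, and the median UMI count was 5327 and 18507.5. LSEC markers summed to 5159 CPM in control and 3228 CPM in cirrhosis Kupffer cells, and their part in these values was not tested.

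Several members stood far higher in macrophages than in LSECs. Rab32, which delivers proteins to lysosome-related organelles and phagosomes, stood at 233 CPM in control and 256 CPM in cirrhosis Kupffer cells, against 8.49 and 9.98 CPM in LSECs. Rab7b, which links late endosomes to the Golgi, stood at 39.8 and 50.02 CPM, and Rab39 at 24.3 and 21.6 CPM, where LSECs had under 1 CPM of either. In the 445 lipid-associated macrophages of the cirrhosis library (the control had too few), Rab7b reached 97.1 CPM, Rab32 122 CPM and Rab39 6.53 CPM. Rab7b was thus higher and Rab32 and Rab39 lower there than in the Kupffer cells of the same library. Rab7b was not confined to macrophages. It was also a leading gene of a myeloid sub-cluster of 44 control and 34 cirrhosis cells, beside Xcr1 and Wdfy4 of the dendritic list. That sub-cluster was given no class.

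Other classes also had members that stood above their LSEC level. T or NK cells expressed Rab37, a secretory granule Rab, at 50.2 CPM in control and 55.3 CPM in cirrhosis, and Rab19 at 57.2 and 43.9 CPM, with under 1 CPM in LSECs for each. Cholangiocytes expressed Rab25, the epithelial Rab11 paralog, at 67.3 and 70.0 CPM, and Rab27b, a secretory paralog of Rab27a, at 164 CPM in control and 67.7 CPM in cirrhosis (-1.28, -1.52 to -1.04). Plasmacytoid dendritic cells had 83.8 and 82.7 CPM of Rab33b and 86.8 and 85.4 CPM of Rab24, against 19.4 and 18.7 CPM and 40.5 and 46.9 CPM in LSECs. Hepatocytes of the cirrhosis library had 30.6 CPM of Rab4a and 21.5 CPM of Rab32. Lymphatic endothelial cells, 62 in the cirrhosis library, had 525 CPM of Rab11a, against 321 CPM in LSECs, and 47.3 CPM of Rab3d, against 20.7. Of these members Rab27b alone had an interval that left out 0 in its own class, and in both libraries cholangiocytes were its highest class.

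**Figure D3:**
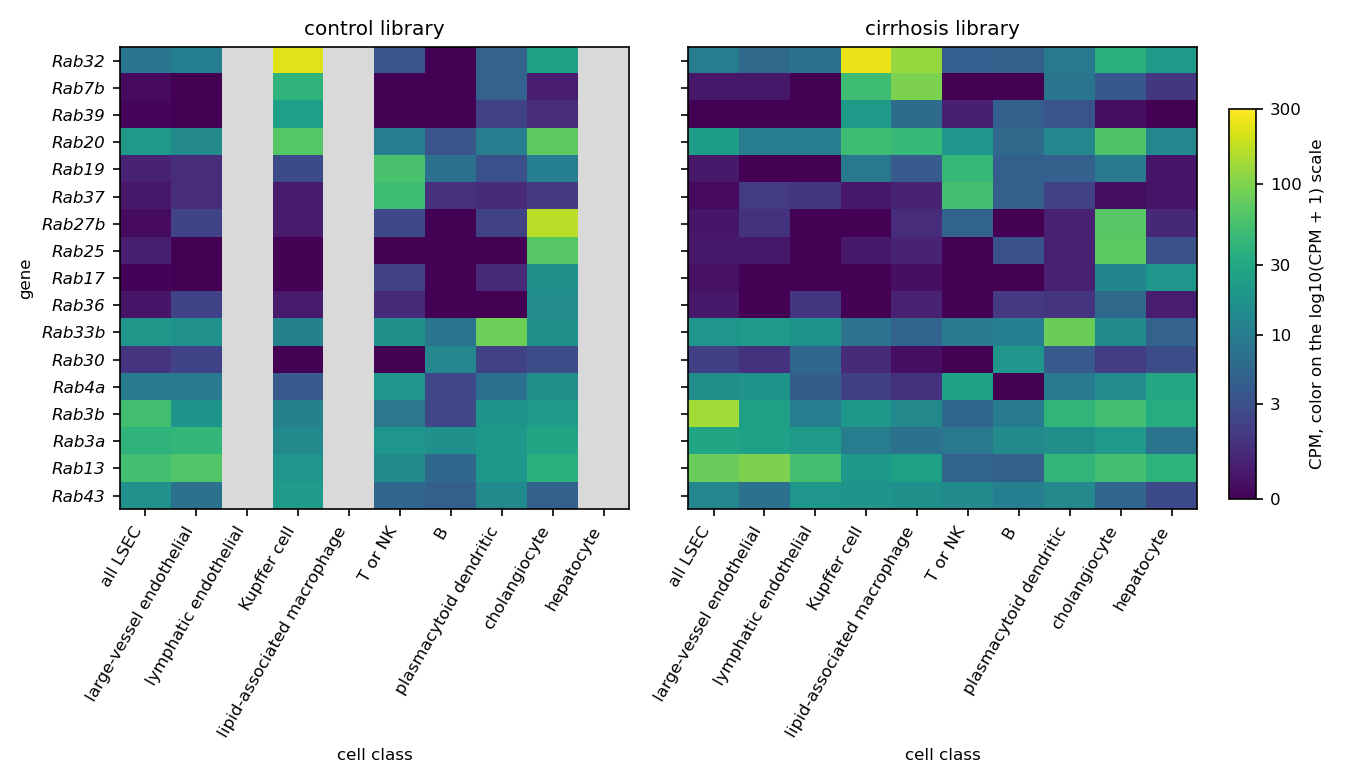
Level of 17 Rab genes (rows) in 10 cell classes (columns) of each library, colored by log10(CPM + 1); gray columns had fewer than 50 cells. Among the classes shown, Rab32, Rab7b and Rab39 stand out in macrophages, Rab19 and Rab37 in T or NK cells, and Rab27b and Rab25 in cholangiocytes.

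Between libraries, T or NK cells went against the LSECs. Their Rab sum was 2507 CPM in control (259 cells) and 2119 CPM in cirrhosis (243), a log2 ratio of -0.24 (-0.31 to -0.18). Of 26 measured members 5 were higher and 21 lower, where 43.5% of all genes were higher, and the intervals of 6 lay below 0 (18.8% of all genes) and of none above (10.3%). Rab1a stood at 92.3 and 54.1 CPM (-0.77), Rab12 at 45.2 and 26.1 CPM (-0.79) and Rab5c at 161 and 121 CPM (-0.41, -0.67 to -0.14). With doublets kept, Rab5c was 0.01 and the sum -0.13. The LSEC markers summed to 3742 CPM in control and 1109 CPM in cirrhosis T or NK cells, with all 12 detected in each, and their part was not tested. Cholangiocytes had sums of 3250 and 3358 CPM (0.05, 0.00 to 0.09) and plasmacytoid dendritic cells of 2875 and 2881 CPM (0.00, -0.07 to 0.07).

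Rab3b was also higher in cholangiocytes, at 22.1 and 53.3 CPM (1.27), and in plasmacytoid dendritic cells, at 18.2 and 41.0 CPM (1.17). Its ratio in LSECs was 1.37, and how much of its level in cholangiocytes and plasmacytoid dendritic cells came from LSEC transcripts was not tested. In those classes 10 of 34 and 3 of 29 measured members had intervals above 0 (15.1% and 8.64% of all genes), and 1 each had them below (15.8% and 10.2%). The LSEC markers summed to 7054 and 5745 CPM in cholangiocytes and to 7019 and 5136 CPM in plasmacytoid dendritic cells. In LSECs themselves they summed to 23373 and 14484 CPM, so they were lower in cirrhosis in all these classes. The hepatocyte markers went the other way, with 9459 and 11185 CPM in cholangiocytes, above that class's own markers at 6704 and 5429 CPM, and 513 and 1898 CPM in plasmacytoid dendritic cells. Kupffer markers summed to 523 and 1044 CPM in the former and 673 and 1810.25 CPM in the latter, and the part of these lists was not tested. In B cells the Rab sum was 1164 and 1756 CPM (0.59), but the median of all genes there was 0.74 and the members' 0.63, so the members' median lay below that of all genes. The 8 B markers summed to 27636 and 9826 CPM and the 5 plasma cell markers to 43358 and 9784 CPM in this class, and their part was not tested. Rab21 stood at 77.0 and 196 CPM, Rab8a at 81.7 and 112 CPM and Rab24 at 37.9 and 60.6 CPM there, and intervals lay above 0 for 7 of 21 members (49.4% of all genes) and below 0 for none (4.4%).

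**Figure D4:**
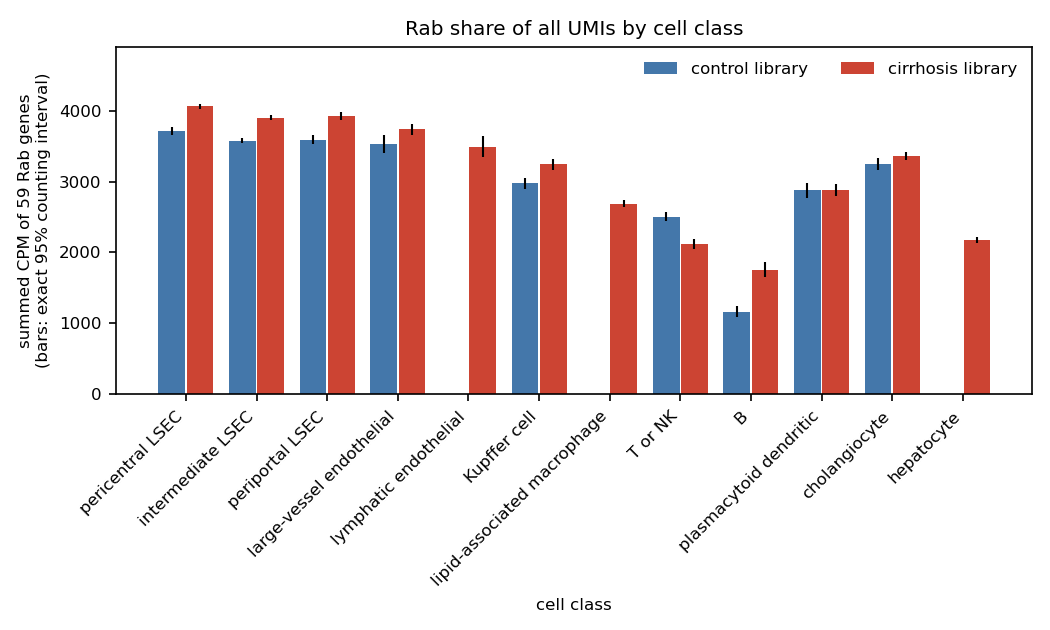
Summed CPM of the 59 Rab genes by cell class, with bars for the control and cirrhosis libraries and exact 95% counting intervals; a missing bar is a class with fewer than 50 cells. The 3 LSEC zones lie between 3579 and 4063 CPM, above T or NK cells at 2507 and 2119 CPM.

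The Rab partners in LSECs did not share a direction. Of the genes for escort, prenylation and GDP dissociation inhibition 4 of 6 measured were higher, of the GEFs 8 of 18, of the GAPs 10 of 21 and of the effectors 11 of 23, with medians of 0.11, -0.04, -0.03 and -0.02. Of the clathrin coat and its adaptors 12 of 21 were higher, of the retromer, sorting nexin and EHD list 8 of 17, and of the HOPS, CORVET and ESCRT complexes 13 of 23, with medians of 0.02, -0.01 and 0.01. Over all measured genes in LSECs, 44.7% were higher, and the counts of these lists are not read as a trait of the partners. Gdi2, a GDP dissociation inhibitor, stood at 324 and 376 CPM (0.22), Rabggtb, a subunit of the Rab prenylating enzyme, at 35.8 and 43.1 CPM (0.27), and Rabac1, a prenylated Rab acceptor, at 394 and 308 CPM (-0.36).

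Single partners spread more widely than their lists. Among GEFs, Rin3, which activates Rab5, stood at 82.8 CPM in control and 52.4 CPM in cirrhosis (-0.66, -0.76 to -0.56), Dennd2d at 20.7 and 10.4 CPM (-1.001), Dennd5a at 148 and 198 CPM (0.42) and Madd, which activates Rab3 proteins, at 19.7 and 24.96 CPM (0.34). Among GAPs, Tbc1d1 and Tbc1d4, which act on Rab10, differed by -0.75 and -0.52, and Evi5, linked to Rab11, and Tbc1d10b by 0.47 and 0.35. Of the effectors, Eea1, the Rab5 tether of early endosomes, stood at 75.7 and 96.9 CPM (0.36), Ehbp1l1 at 26.3 and 50.04 CPM (0.93), Rabep2 at 26.7 and 19.1 CPM (-0.48) and Mical3 at 49.5 and 37.3 CPM (-0.41). The Rab5 GEF Rin3 and the Rab5 effector Eea1 thus lay on opposite sides of 0.

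The coat and recycling genes showed the same spread. The clathrin light chains Clta and Cltb stood at 690 and 997 CPM (0.53) and at 51.5 and 79.8 CPM (0.63), and the adaptors Fcho2 and Epn2 at 336 and 216 CPM (-0.63) and 153 and 119 CPM (-0.36). Ehd3, an endosomal recycling ATPase that is abundant in LSECs, stood at 4559 and 2454 CPM (-0.89, -0.91 to -0.88), and its paralog Ehd1 at 59.2 and 101 CPM (0.77, 0.68 to 0.87). Snx3, a sorting nexin of the retromer route, differed by 0.56 and Washc1 by -0.21. Of the fusion and sorting complexes at late endosomes, Vps39 and Vps11 differed by -0.41 and -0.37, and Chmp3 and Vps37b by 0.34 and 0.21.

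**Figure D5:**
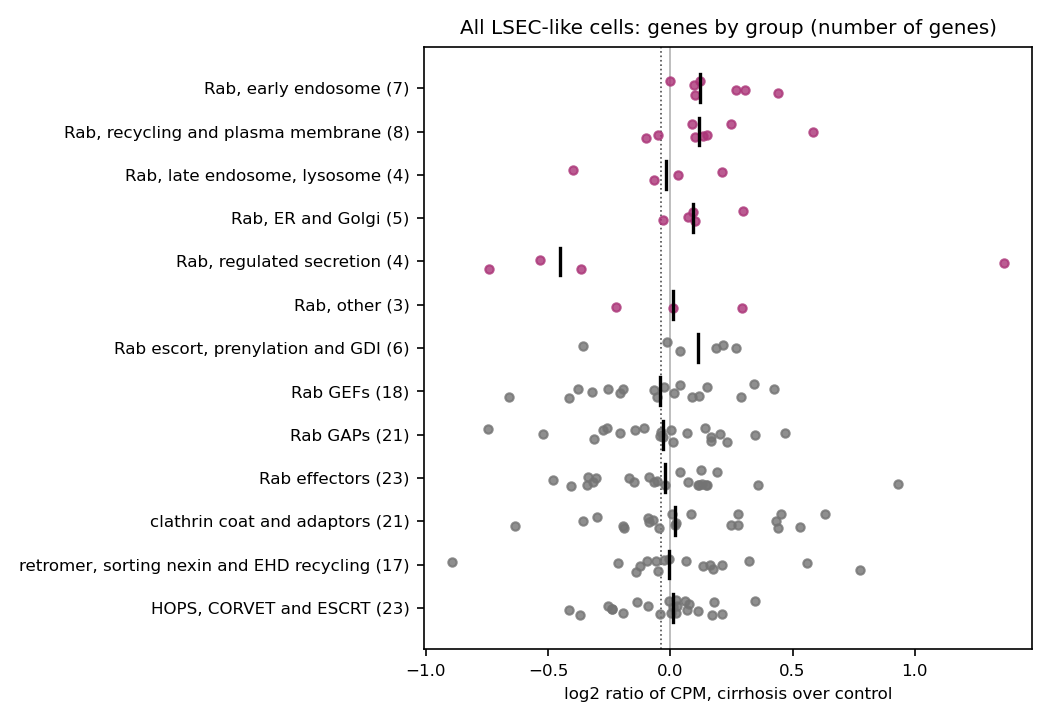
Log2 ratio of CPM, cirrhosis over control, of each measured gene in LSEC-like cells (points), by Rab role and partner list, with the number of genes in brackets; vertical ticks are medians, the solid line is 0 and the dotted line the median of all genes at -0.04. The regulated secretion Rabs have a median of -0.45, with Rab3b at 1.37, and the 7 partner lists have medians from -0.04 to 0.11.

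The number of Rab genes detected per cell differed in the same direction as the sums. Thinned to 3000 UMIs, a control LSEC had a mean of 8.46 Rab genes and a cirrhosis LSEC 8.99 (14.9 and 18.4 before thinning), with 218 and 116 cells too shallow to thin. T or NK cells had 6.10 and 5.67.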

How the data were processed

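The authors' deposited tables hold UMI counts per gene symbol and barcode, made with Cell Ranger on mm10 per the submitters' processing notes; the sources used here give no version, strand setting or filter. The tables summed to 45767322 (control) and 77339928 (cirrhosis) counts, with a lowest barcode total of 500 in each.

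Barcodes with under 500 UMIs, under 300 genes, 20% or more mitochondrial or over 5% erythroid counts were left out (475 control, 666 cirrhosis), then the highest scrublet doublet scores, in a share that grew with the number of barcodes (214, or 4.14%, and 470, or 6.13%). Scanpy 1.11.5 clustered cells in 2 steps (2000 variable genes, no Rab genes, 30 components, 20 neighbours, resolution 0.5 then 0.8 for endothelial cells, with myeloid cells clustered again). Clusters were named from marker lists, with a limit on the mean log2 fold of the zone markers that was set after seeing the data. In all, 25.3% of control and 17.0% of cirrhosis cells stayed in unnamed or mixed clusters. Counts were summed per class and library and scaled to CPM, with an exact conditional interval of the ratio, and classes needed 50 cells per library. The interval code was tested on simulated data. Members and lists were chosen with earlier results of these data known. The text names the 10 most abundant members, the 5 highest and lowest LSEC ratios, the 3 extremes per other class and zone difference, the 2 most specific per class and the 2 extremes per partner list; ratios and zone differences were ranked among members at 20 CPM or more in either library, a limit that the rule as first written did not state for zone differences; the others were named after their values were seen. Positions are from GENCODE M21 (GRCm38). Protein identity between paralogs was not analysed here. The alternatives tried are scaling, the CPM minimum, doublets, cell filter, resolution, weight of cells and zones, cells without hepatocyte or Kupffer counts, and single clusters left out.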

Additional observations from a re-analysis of the deposited data

Results flagged for a closer look

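Some members differed between libraries in opposite directions in 2 classes, with each interval on its own side of 0. With 1 library per condition these differences between classes were not tested. Rab20 was lower in pericentral LSECs (-0.72) and higher in intermediate (0.39) and periportal LSECs (0.82). Without the Wnt9b-led cluster the pericentral value was -0.33. Between LSECs and Kupffer cells, Rab14 was -0.052 against 0.45 and Rab3d -0.37 against 0.85. Between LSECs and T or NK cells, Rab1a was 0.092 against -0.77, Rab5c 0.44 against -0.41 and Rab12 0.29 against -0.79. With doublets kept, Rab5c in T or NK cells was 0.01.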

How the results depend on the processing

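The sum over the family kept its direction in LSECs and each zone under every alternative run. In LSECs, where it was 0.14, it was 0.17 with median-of-ratios scaling, 0.11 over cells without hepatocyte or Kupffer counts (512 control and 84 cirrhosis cells), 0.12 when control LSECs were taken from a single small cluster of 116 cells, 0.11 without Rab3b and 0.10 without Rab5c. The 116 cells were of a Wnt9b-led cluster of the first clustering and were set against all cirrhosis LSECs, so that setting compares unlike cells. Median-of-ratios scaling gave 0.16 pericentrally, 0.17 in intermediate and 0.16 in periportal cells. Without Rab5c these were 0.095, 0.090 and 0.091, and without Rab3b 0.094 pericentrally and 0.10 in intermediate cells. Intermediate cells had 0.083 without hepatocyte or Kupffer counts and 0.15 without the Fos-led cluster. With cells weighted equally, Kupffer cells had 0.23, cholangiocytes 0.17 and B cells 0.16. With doublets kept, T or NK cells had -0.13, B cells 0.73 and cholangiocytes -0.014, which turned direction. B cells turned to -0.15 with median-of-ratios scaling, where the members' median was -0.12. The cause of these shifts was not tested.

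Single members that turned sign in LSECs were Rab40c and Rab31 without hepatocyte or Kupffer counts (0.15 and -0.071), Rab40c with another control cluster alone (0.13) and Rab3a and Rab29 with the 116 control cells alone (0.79 and 0.080). Rab20, whose interval held 0, was -0.048 without hepatocyte or Kupffer counts and -0.12 without the Esm1-led cluster. In Kupffer cells Rab3b was -0.88 with doublets kept, Rab27a 0.97 with the stricter cell filter (51 and 85 cells) and 0.15 with cells weighted equally, and Rab20 0.37 with cells weighted equally. In T or NK cells Rab5c was 0.0094 with doublets kept. In LSECs, 13 of 13 alternatives kept the sign of Rab3b, Rab27a, Rab5c and Rab13. Too few cells remained for cells without hepatocyte or Kupffer counts outside all and intermediate LSECs, for large vessels at a resolution of 0.3, and for plasmacytoid dendritic cells under the stricter filter. Protein identity between paralogs was not run. The single-cluster, doublet and scaling settings of lymphoid and epithelial classes and the sums without 1 gene were chosen after seeing the data. No paired analysis was possible because each condition has 1 library, and for the same reason no replicate could be left out. Counts of 3 UMIs set a limit of 0.143 CPM in control and 0.0962 CPM in cirrhosis LSECs.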
